A study of Mus musculus with 40 samples.

Results

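The 9 MAP kinase phosphatases Dusp1, Dusp2, Dusp4, Dusp5, Dusp6, Dusp7, Dusp8, Dusp10 and Dusp16, together with the pseudokinase Trib1, were followed in RNA-seq of BMDMs, the macrophages that bone marrow cells of the mouse give rise to in culture with M-CSF. The 10 genes were found by matching the Ensembl identifiers of the count table to these symbols. They are 10 of the 43430 genes in the table, and all 10 were among the 11853 genes that passed the filter on low counts. The set was chosen on gene names, with earlier results of these data known. Trib1 had been chosen from its fall in WT cells given LPS with piericidin A, a contrast with WT cells given LPS alone, so its values in every comparison that uses either set of libraries are given as a description, with no test.

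BMDMs of 5 WT and 5 NDI1 mice were each divided into 4 cultures, which gave 40 polyA-selected libraries in 8 groups of 5. The cultures were left untreated, given LPS at 100 ng/mL for 4 h, given piericidin A at 500 nM, or given piericidin A at 500 nM for 30 min and then LPS at 100 ng/mL for 4 h. LPS is the bacterial outer membrane component sensed by TLR4, and piericidin A blocks mitochondrial complex I. The labels give the strain of all mice as C57/Bl6, and the NDI1 line came from a mixed J and N substrain background. Mice of either sex, 8 to 14 weeks old, were used with littermates as controls, and all carried Vav-iCre, the WT mice included. NDI1 mice also carried the yeast NADH dehydrogenase NDI1 behind a lox-stop-lox cassette at Rosa26, so that Vav-iCre switched it on in the blood lineages. NDI1 oxidizes NADH without pumping protons and is not blocked by piericidin A. The transcript of the yeast gene was not analysed here. The comparison of both genotypes with and without the drug asks which effects of piericidin A remain when NADH is oxidized by an enzyme that the drug does not block.

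MAP kinases are switched on by phosphorylation of a threonine and a tyrosine, and the MAP kinase phosphatases remove both phosphates. Dusp1, Dusp2, Dusp4 and Dusp5 are nuclear and are induced as early-response genes, Dusp6 and Dusp7 are cytoplasmic and prefer ERK, and Dusp8, Dusp10 and Dusp16 prefer JNK and p38. In macrophages, DUSP1 is known for limiting p38 and JNK signalling and cytokine output after TLR4 is engaged. TRIB1 has no kinase activity and serves as a scaffold that brings C/EBPα to the ubiquitin ligase COP1, and it also binds MEK1.

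In the deposited table (mm10), Dusp1 lies at chr17:26505590-26508519, Dusp2 at chr2:127336159-127338376, Dusp5 at chr19:53529109-53542431, Dusp6 at chr10:99263231-99267488 and Dusp7 at chr9:106368632-106375724. Dusp8 lies at chr7:142079490-142095843, Dusp10 at chr1:184013302-184075636, Dusp16 at chr6:134715473-134792625, Dusp4 at chr8:34807297-34819894 and Trib1 at chr15:59648350-59656550. The GENCODE M21 gene is longer than this for Dusp1, Dusp6, Dusp16 and Trib1, and only its exons within the deposited span were used here. Exons of Dusp5 and Dusp8 overlap exons of a gene on the opposite strand, AC137853.2 and Gm32786. The strand setting of the counting is not given in the sources used here, so the values of these genes are less certain.

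Promoter sequences (RefSeq, GRCm38.p6, 250 bases before to 50 bases after the start that RefSeq gives the gene) were at hand for 8 of the 10 genes. The RefSeq start equals the deposited start of Dusp2, Dusp6 and Dusp7, lies 3 bases outside that of Dusp16, and lies 36, 47, 559 and 21079 bases inside the gene for Dusp5, Dusp1, Dusp8 and Dusp10. Distances below are counted from the RefSeq start. Those of Dusp1 and Dusp8 are shown because they carry the cyclic AMP response element TGACGTCA and because both genes were higher with piericidin A in resting WT cells, and that of Dusp6 because it carries the one kappa B-like match and its gene was not called with piericidin A. Letters are written 5′ to 3′ on the strand of the gene, and capitals mark the motif matches.
Dusp1, chr17:26508423-26508722, minus strand: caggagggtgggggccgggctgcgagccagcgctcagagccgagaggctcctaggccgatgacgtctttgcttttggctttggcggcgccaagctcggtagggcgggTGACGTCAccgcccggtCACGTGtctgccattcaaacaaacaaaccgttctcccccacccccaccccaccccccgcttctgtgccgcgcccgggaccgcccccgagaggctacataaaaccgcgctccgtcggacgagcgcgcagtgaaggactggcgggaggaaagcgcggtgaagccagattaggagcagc
Dusp8, chr7:142095235-142095534, minus strand: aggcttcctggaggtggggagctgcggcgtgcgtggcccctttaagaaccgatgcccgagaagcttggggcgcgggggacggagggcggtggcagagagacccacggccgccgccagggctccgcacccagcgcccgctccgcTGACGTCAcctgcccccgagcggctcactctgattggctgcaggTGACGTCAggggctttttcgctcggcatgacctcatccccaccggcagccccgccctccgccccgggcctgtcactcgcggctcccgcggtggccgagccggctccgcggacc
Dusp6, chr10:99262981-99263280, plus strand: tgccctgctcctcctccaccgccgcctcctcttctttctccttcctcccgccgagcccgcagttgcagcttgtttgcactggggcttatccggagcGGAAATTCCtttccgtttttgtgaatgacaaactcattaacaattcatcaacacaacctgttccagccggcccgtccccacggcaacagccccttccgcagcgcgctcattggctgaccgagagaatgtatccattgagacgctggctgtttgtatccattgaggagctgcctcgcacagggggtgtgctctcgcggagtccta
The search covered both strands and used exact letters. TGACGTCA started 143 bases before the start of Dusp1 and 107 and 63 bases before that of Dusp8, and 588 of the 32851 promoters in the table hold it (1.79%). It was not found in the windows of Dusp2, Dusp5, Dusp10 and Dusp16, which were also higher with piericidin A in resting WT cells, nor in those of Dusp6 and Dusp7. The E-box CACGTG was found in Dusp1, 126 bases before the start, and in Dusp2, 109 bases before the start, against 7.15% of all promoters. The kappa B-like motif GGANTTTCC was found in Dusp6 alone of the 8, 154 bases before the start, against 1.25% of all promoters. The AP-1 motif TGANTCA was in none of the 8 and in 7.81% of all promoters. No match overlapped another. These matches describe the letters of the windows, and binding was not measured.

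Libraries held between 6950748 and 13552070 counts, with a median of 10361773.5. Levels are given as CPM, counts scaled to a common library size with TMM factors, which equalize the bulk of genes between libraries, as mean ± SD of 5 mice. The macrophage markers Adgre1, Csf1r, Cd68, Itgam, Lyz2, Mertk and Fcgr1 summed to 19260 to 37710 CPM, and none of these 7 was at 0. All 4 libraries of WT mouse 496 and all 4 of NDI1 mouse 503 stood apart on the second principal component, at 35.3 to 72.8 and 28.1 to 30.6, against −26.3 to 13.6 for the other 8 mice. The 6 neutrophil and granule markers summed to 267 to 1581 CPM in mouse 496 and 268 to 540.2 CPM in mouse 503, against 8.77 to 109 CPM in the other mice, with Ly6g at a median of 0 and S100a8 and S100a9 holding most of the sum. In mouse 496 this sum was 267 CPM untreated, 625 CPM with LPS, 946 CPM with piericidin A and 1581 CPM with both. Its 4 stroma markers summed to 30.2 to 105 CPM, against 0.754 to 20.2 CPM in the 8 other mice. Those of mouse 503 summed to 10.0 to 27.3 CPM, above the 4 other NDI1 mice under each treatment. The B cell markers summed to 0.636 to 11.6 CPM in mouse 496 and 3.94 to 9.77 CPM in mouse 503, against 0 to 2.00 CPM in the other mice, and the mast cell markers to 0.0795 to 3.29 CPM and 0.844 to 1.07 CPM, against 0 to 0.384 CPM, with Mcpt4 at 0. Over all 40 libraries the T cell markers summed to 1.99 to 14.4 CPM. Those of dendritic cells moved with LPS, summing to 0.652 to 2.70 CPM in untreated and 6.73 to 8.93 CPM in LPS-treated WT cells and to 1.21 to 3.495 and 3.62 to 10.4 CPM in NDI1 cells, and reached 16.9 CPM in mouse 496 with both agents. With piericidin A alone the dendritic cell markers summed to 9.19 CPM in mouse 496 and 7.34 CPM in mouse 503. Untreated they were at 2.70 and 3.495 CPM. The part of these cells in the results was not tested, and results that change without the pair of mice are given with and without them. In bulk RNA, fewer cells of a type and less RNA per cell cannot be told apart. Xist was expressed in 3 of 5 WT mice and 4 of 5 NDI1 mice, so the sexes were not evenly divided.

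**Figure D1:**
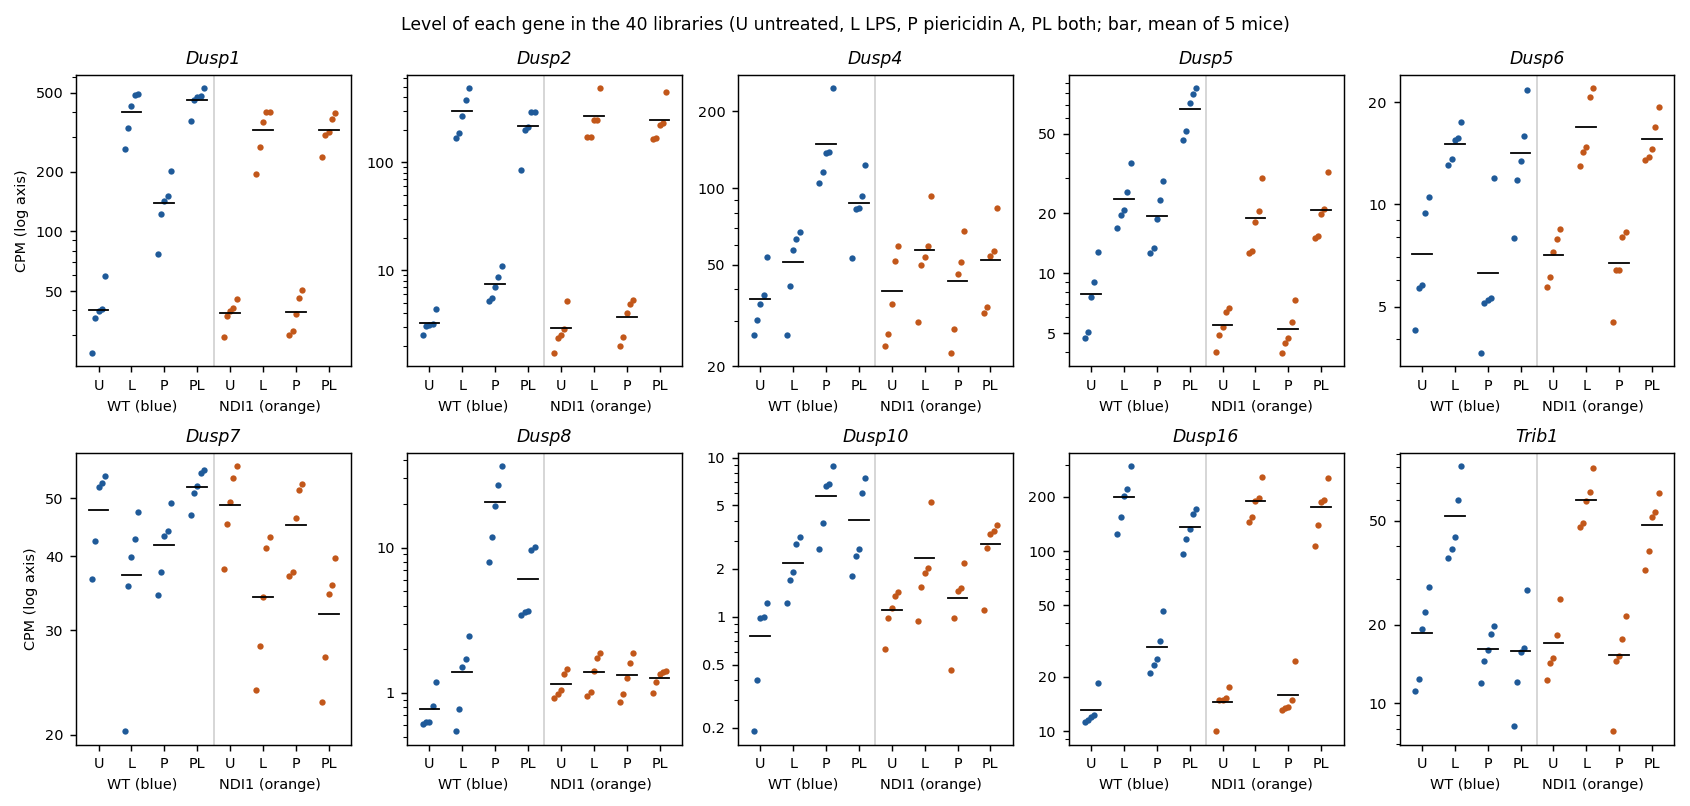
Level of each gene in CPM (log axis) in all 40 libraries, by genotype (WT blue, NDI1 orange) and treatment (U untreated, L LPS, P piericidin A, PL both). Points are mice and bars the mean of 5. Piericidin A alone lifts Dusp8 in WT from 0.609–1.18 to 8.02–36.5 CPM and leaves it at 0.861–1.90 CPM in NDI1, and Trib1 with both agents in WT stays at 8.17–27.1 CPM.

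Levels between genes were compared per kilobase of exon. In untreated WT cells Dusp1 had 14.9 ± 4.71 CPM per kilobase, Dusp7 14.2 ± 2.36 and Dusp4 13.4 ± 3.83, and these 3 leading genes differed by less than their SDs. Trib1, Dusp5, Dusp6, Dusp16 and Dusp2 followed between 3.26 and 1.62 CPM per kilobase, and Dusp10 and Dusp8 were lowest at 0.248 ± 0.144 and 0.159 ± 0.0497. With LPS the order changed, with Dusp1 at 148 ± 37.3 and Dusp2 at 148 ± 66.7 CPM per kilobase, which overlapped, then Dusp16 at 25.6 ± 8.53 and Dusp4 at 18.7 ± 6.21. Dusp10 reached the floor of 3 counts in one untreated WT library, so its fold changes rest on few counts.

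LPS raised 6 of the 9 phosphatases in WT cells, against 31.5% of all tested genes called higher. Dusp2, the lymphoid and myeloid nuclear phosphatase, was at 3.10, 3.17, 2.50, 4.37 and 3.04 CPM in untreated WT mice 449, 452, 453, 496 and 520 and at 379, 265, 186, 483 and 167 CPM with LPS. The groups did not overlap, and the log2 fold change was 6.51 ± 0.43 (adjusted p = 7.63e-16), the widest of the 9. Untreated and LPS-treated WT libraries did not overlap for 6 of the 9 phosphatases, against 49.8% of all tested genes. Dusp16, a JNK-directed phosphatase, went from 13.1 ± 3.09 to 199.7 ± 66.5 CPM, with a log2 fold change of 3.92 ± 0.27 (adjusted p = 2.14e-15). Dusp1 went from 40.2 ± 12.7 to 398 ± 100.5 CPM, with a log2 fold change of 3.31 ± 0.24 (adjusted p = 1.45e-14). These 3 genes rose at least 3.03 on the log2 scale in each of the 5 WT mice. The rises of Dusp5 (1.60 (adjusted p = 5.72e-06)), Dusp10 (1.50 (adjusted p = 0.00764)) and Dusp6 (1.08 (adjusted p = 3.30e-04)) were smaller. Dusp4 (0.48 (adjusted p = 0.197)), Dusp7 (−0.36 (adjusted p = 0.0715)) and Dusp8 (0.83 (adjusted p = 0.0854)) were not called by this fit. With the mouse as a block Dusp4 was called higher (adjusted p = 0.0216) and Dusp7 lower (adjusted p = 0.0112). Dusp7 was also called lower without mouse 453 (adjusted p = 0.0145) or 521 (0.0472) and with at least 10 counts in every library (0.0342). Dusp8 was called higher without mouse 449 (adjusted p = 0.0491).

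In NDI1 cells LPS raised the same 6 phosphatases and Trib1, 7 of the 10 genes, against 31.5% of all genes called higher, and lowered Dusp7, against 31.2% called lower. Dusp7, the ERK-directed cytoplasmic phosphatase, was at 48.6 ± 7.39 CPM untreated and 34.1 ± 8.22 CPM with LPS, a log2 fold change of −0.51 ± 0.17 (adjusted p = 0.0106). Dusp4 was called higher in NDI1 cells only with the mouse as a block (0.53 (adjusted p = 0.145), with the block 0.0148). The difference of the LPS effect between the genotypes was called for 0 of the 9 phosphatases by edgeR, with 0 at an unadjusted p under 0.05 and 0 by DESeq2, against 0% of all genes. That difference ran from −0.56 for Dusp8 (95% interval −1.71 to 0.59) to 0.18 for Dusp5 (95% interval −0.59 to 0.95), where each interval is the fitted value ± 1.96 standard errors.

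The LPS calls depend on how libraries are scaled. Relative to library totals, TMM factors moved the median gene by 0.78 on the log2 scale for LPS against untreated in WT cells and by 0.77 in NDI1 cells. With library totals, the rise in WT cells was 5.70 (adjusted p = 5.30e-16) for Dusp2, 3.12 (adjusted p = 1.04e-14) for Dusp16, 2.51 (adjusted p = 6.29e-12) for Dusp1 and 0.81 (adjusted p = 0.00535) for Dusp5, all in edgeR. Dusp6 (0.31 (adjusted p = 0.259)) and Dusp10 (0.72 (adjusted p = 0.165)) were then not called, Dusp7 was called lower (−1.13 (adjusted p = 7.14e-07)) and Dusp4 turned to −0.28 (adjusted p = 0.44). The split in WT was thus 6 higher and 0 lower with TMM against 4 higher and 1 lower with totals. In NDI1 cells Dusp6 (0.49 (adjusted p = 0.073)) and Dusp10 (0.31 (adjusted p = 0.543)) were likewise not called with totals, Dusp7 was at −1.29 (adjusted p = 6.97e-08), and Dusp4 (−0.22) and Dusp8 (−0.50) turned below 0. Dusp10 also lost its call in WT without mouse 520 (adjusted p = 0.0775) and without the pair of mice that stood apart (1.24 (adjusted p = 0.052)). In NDI1, Dusp10 lost its call without any of mice 449, 460, 503 and 521 (adjusted p = 0.0535 to 0.304) and without the pair of mice that stood apart (1.01 (adjusted p = 0.0888)), and Dusp7 without mouse 461 (adjusted p = 0.0861). For piericidin A against untreated the shift of the median gene was 0.13 in WT cells and 0.02 in NDI1 cells, and no member's call changed.

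Piericidin A alone raised 7 of the 10 genes in resting WT cells, against 7.79% of all tested genes called higher, and lowered none. The largest of these rises was that of Dusp8, a phosphatase of JNK and p38 best known from brain and heart. It was at 0.815, 1.18, 0.609, 0.636 and 0.634 CPM in untreated WT mice 449, 452, 453, 496 and 520 and at 19.3, 8.02, 11.9, 36.5 and 27.1 CPM with piericidin A. Every treated library was above every untreated one, and the log2 fold change was 4.70 ± 0.39 (adjusted p = 4.61e-11), a 26.0-fold rise. Its level with piericidin A differed between mice, from 8.02 CPM in mouse 452 to 36.5 CPM in mouse 496, and the within-mouse rises were 4.28, 2.58, 3.93, 5.48 and 5.05 on the log2 scale.

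The other JNK and p38 phosphatases moved the same way. Dusp10 was at 0.978, 0.996, 1.22, 0.397 and 0.190 CPM in the untreated WT mice and at 6.82, 2.65, 3.86, 8.84 and 6.62 CPM with piericidin A, with no overlap and a log2 fold change of 2.90 ± 0.47 (adjusted p = 3.59e-05). Dusp16 was at 11.5, 12.3, 11.2, 12.0 and 18.6 CPM and 23.2, 25.2, 21.1, 31.6 and 46.4 CPM, also without overlap, with a log2 fold change of 1.16 ± 0.25 (adjusted p = 0.00119).

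Of the nuclear phosphatases, all 4 were higher. Dusp1 was at 59.8, 24.4, 36.5, 40.5 and 39.8 CPM in the untreated WT mice and at 202, 77.3, 122, 142 and 150.1 CPM with piericidin A. The groups did not overlap, the log2 fold change was 1.78 ± 0.23 (adjusted p = 8.63e-07), and the within-mouse rises of 1.75, 1.66, 1.73, 1.80 and 1.91 were alike in the 5 mice, although untreated levels varied from 24.4 to 59.8 CPM. Dusp4, which dephosphorylates ERK and JNK, was at 30.3, 38.0, 35.2, 26.6 and 53.8 CPM and 138, 104, 138, 116 and 248 CPM, again without overlap, with a log2 fold change of 2.01 ± 0.33 (adjusted p = 3.79e-05). Its level with piericidin A alone exceeded that with LPS alone, which was 26.5 to 67.5 CPM. Dusp5, a nuclear phosphatase of ERK, was at 7.82 ± 3.31 and 19.4 ± 6.91 CPM, overlapping only where untreated mouse 496 (12.8 CPM) was above treated mouse 452 (12.6 CPM), with a log2 fold change of 1.32 ± 0.28 (adjusted p = 0.00106). Dusp2 went from 3.24 ± 0.686 to 7.44 ± 2.37 CPM (1.20 ± 0.38 (adjusted p = 0.0295)), and this call was lost without mouse 449 (adjusted p = 0.102), 453 (0.0624), 496 (0.0945) or 520 (0.0592).

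The ERK-directed cytoplasmic pair and Trib1 were not called. Dusp6 was at 7.14 ± 2.70 CPM untreated and 6.26 ± 3.28 CPM with piericidin A (−0.19 (adjusted p = 0.666), 95% interval −0.69 to 0.31). Dusp7 was at 47.8 ± 7.91 and 41.7 ± 5.80 CPM (−0.20 (adjusted p = 0.481), 95% interval −0.53 to 0.14). Trib1 was at 18.6 ± 6.96 and 16.1 ± 3.12 CPM (−0.20 (adjusted p = 0.668), 95% interval −0.74 to 0.34). Libraries of untreated and piericidin A-treated WT cells did not overlap for 6 of the 10 genes, against 11.4% of all tested genes, and the 7 genes called were the same without the pair of mice that stood apart.

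In resting NDI1 cells piericidin A changed 0 of the 10 genes in edgeR, with 0 at an unadjusted p under 0.05 and 0 by DESeq2, against 0% of all tested genes (58 genes at an unadjusted p under 0.05). Dusp8 was at 1.06, 0.926, 1.46, 0.986 and 1.36 CPM in untreated NDI1 mice 447, 460, 461, 503 and 521 and at 1.90, 0.989, 0.861, 1.27 and 1.60 CPM with piericidin A. These ranges overlapped, and the 95% interval of the log2 fold change was −0.57 to 0.95. Dusp1 was at 29.4, 39.6, 45.5, 37.5 and 41.3 CPM and 31.6, 38.4, 50.6, 30.1 and 46.3 CPM, with a 95% interval of −0.41 to 0.47. For the other 8 genes the log2 fold change lay between −0.15 for Trib1 and 0.34 for Dusp2.

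The test of the difference between genotypes in the piericidin A effect of resting cells called 4 of the 10 genes as lower in NDI1, against 1.1% of all tested genes. The difference was −4.51 ± 0.54 (adjusted p = 1.68e-06) for Dusp8, −2.67 ± 0.66 (adjusted p = 0.0288) for Dusp10, −1.89 ± 0.45 (adjusted p = 0.0226) for Dusp4 and −1.76 ± 0.32 (adjusted p = 0.00127) for Dusp1, on the log2 scale. The same mice being used with and without the drug, the fit with the mouse as a replicate block called 6, adding Dusp5 (adjusted p = 0.00261) and Dusp16 (adjusted p = 0.0112) to those 4, and it called 8.96% of all tested genes in either direction. Without the block Dusp5 was at −1.38 (adjusted p = 0.0811) and Dusp16 at −1.03 (adjusted p = 0.159) in edgeR. DESeq2, also without a block, called Dusp5 (−1.37 (adjusted p = 0.0314)) and not Dusp16. The calls of Dusp8 and Dusp1 held when each mouse was left out. That of Dusp4 was lost without mouse 449, 460, 461, 496 or 520 (adjusted p = 0.0547 to 0.0819) and with library totals (−1.77 (adjusted p = 0.0506)), and that of Dusp10 without mouse 449, 460, 461, 496, 520 or 521 (0.0761 to 0.123) and without the pair of mice that stood apart (−2.51 (adjusted p = 0.146)). The count lay between 2 and 4 without 1 mouse and was 2 when only the mice that express Xist were fitted.

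Set against each other directly, untreated NDI1 and WT cells differed in 0 of the 10 genes, and with LPS in 0 of the 9 phosphatases. Each count was 0 at an unadjusted p under 0.05 and 0 by DESeq2, against 0% of all tested genes in both comparisons. With piericidin A, 6 of the 10 genes were lower in NDI1 than in WT, against 4.31% of all genes. The log2 differences were −3.94 (adjusted p = 1.55e-09) for Dusp8, −2.12 (adjusted p = 0.00161) for Dusp10, −1.89 (adjusted p = 1.88e-05) for Dusp5, −1.81 (adjusted p = 8.29e-07) for Dusp1, −1.79 (adjusted p = 2.75e-04) for Dusp4 and −0.88 (adjusted p = 0.0184) for Dusp16. The genotypes did not overlap for the first 5 of these, against 6.05% of all tested genes. The call of Dusp16 was lost without mouse 447, 460, 461 or 520 (adjusted p = 0.0505 to 0.117) and without the pair of mice that stood apart (−0.83 (adjusted p = 0.0666)).

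**Figure D2:**
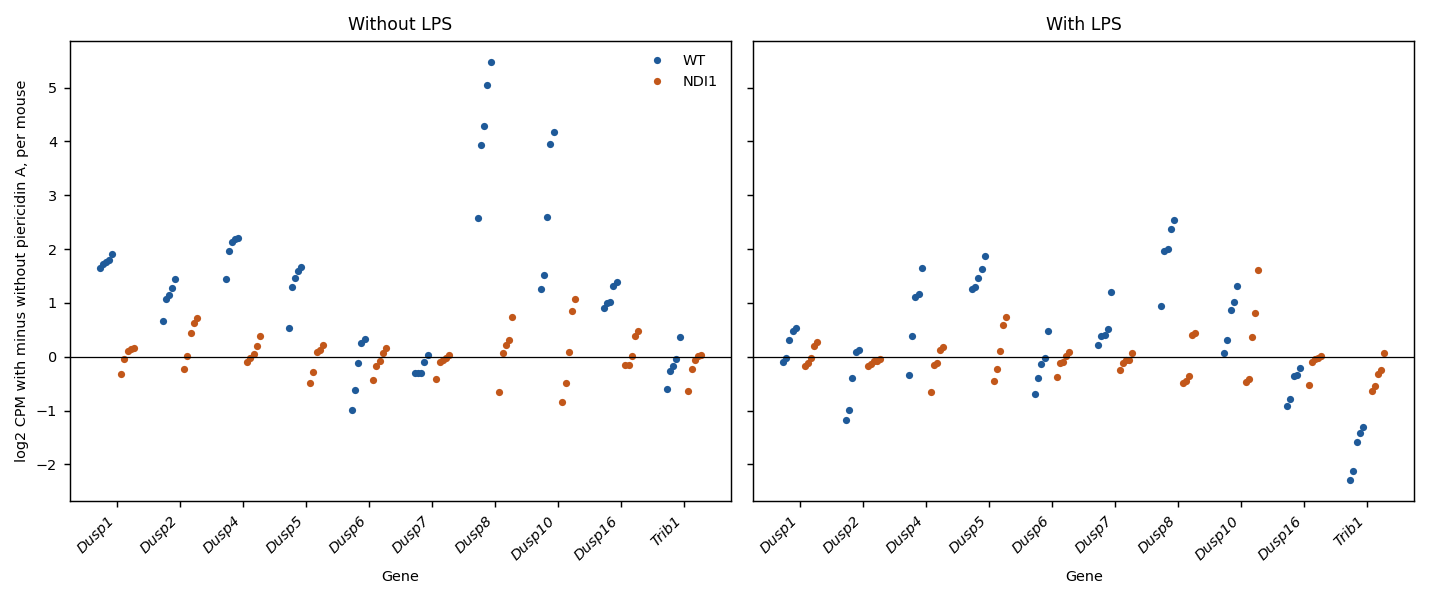
Change in log2 CPM with piericidin A within each mouse, without LPS (left) and with LPS (right), for the 10 genes (WT blue, NDI1 orange, 1 point per mouse). In WT without LPS, Dusp8 rises by 2.58 to 5.48 and Dusp1 by 1.66 to 1.91, and with LPS Trib1 lies at −2.29 to −1.30, while NDI1 points lie between −0.65 and 0.75 except for Dusp10, which spreads from −0.84 to 1.62.

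With piericidin A under LPS in WT cells, 2 of the 9 phosphatases were called higher, Dusp8 and Dusp5, against 7.81% of all tested genes, and none lower, against 8.92%. Dusp8 was at 0.545, 1.71, 0.781, 2.47 and 1.51 CPM with LPS in mice 449, 452, 453, 496 and 520 and at 3.62, 3.46, 3.68, 10.1 and 9.71 CPM with both agents, without overlap, a log2 fold change of 2.13 ± 0.38 (adjusted p = 1.92e-04). Dusp5 was at 35.7, 16.8, 19.5, 25.5 and 20.7 CPM and 85.1, 46.5, 71.8, 79.4 and 51.5 CPM, also without overlap, a log2 fold change of 1.50 ± 0.27 (adjusted p = 1.92e-04). Both were higher in all 5 WT mice, by 0.94 to 2.54 and by 1.25 to 1.87 on the log2 scale. Libraries with LPS and with both agents did not overlap for 2 of the 9 phosphatases, Dusp5 and Dusp8, against 7.88% of all tested genes.

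Dusp1, which piericidin A had raised in resting cells, was at 491, 259, 332, 484 and 426 CPM with LPS and 459, 359, 481, 475 and 528 CPM with both, a log2 fold change of 0.21 ± 0.22 (adjusted p = 0.548). The ranges overlapped. Dusp2 was at 296 ± 134 and 215 ± 84.7 CPM (−0.46 (adjusted p = 0.343)), Dusp6 at 15.1 ± 1.80 and 14.1 ± 5.07 CPM (−0.09 (adjusted p = 0.841)), and Dusp10 at 2.18 ± 0.822 and 4.07 ± 2.50 CPM (0.91 (adjusted p = 0.163)). With the mouse as a replicate block a further 3 genes were called, which gave 5 calls in place of 2, and that fit called 34.5% of all tested genes in either direction. These were Dusp4, higher by 0.77 (adjusted p = 0.0924, with the block 0.00272), Dusp7, higher by 0.49 (adjusted p = 0.0508, with the block 0.00347), and Dusp16, whose log2 fold change was −0.56 (adjusted p = 0.097, with the block 0.0157). Dusp7 was also called by DESeq2 (adjusted p = 0.0427), with library totals (adjusted p = 0.0369), with at least 10 counts in every library (0.0397) and without mouse 453, 503 or 521 (0.0323 to 0.0483), and Dusp4 without mouse 452 (0.0458).

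In NDI1 cells under LPS piericidin A changed 0 of the 10 genes in edgeR, with 0 at an unadjusted p under 0.05 and 0 by DESeq2, against 0% of all tested genes. Dusp8 was at 1.43, 1.02, 0.945, 1.74 and 1.88 CPM with LPS in mice 447, 460, 461, 503 and 521 and at 0.997, 1.41, 1.36, 1.20 and 1.42 CPM with both, and Dusp5 at 12.9, 12.5, 18.0, 30.0 and 20.5 CPM and 19.7, 21.0, 15.4, 32.2 and 15.0 CPM. Both pairs of groups overlapped, with 95% intervals of −0.95 to 0.69 and −0.40 to 0.67 on the log2 scale.

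The difference between genotypes under LPS was called for 1 of the 9 phosphatases, Dusp8, against 0.818% of all tested genes called lower. It was −2.26 ± 0.57 (adjusted p = 0.0411). This call was lost without any one of mice 447, 449, 460, 461, 496, 503, 520 and 521 (−2.39 to −2.06, adjusted p = 0.0607 to 0.183). Without the pair of mice that stood apart the count was 0, with Dusp8 at −2.18 (adjusted p = 0.176). The count was 0 with only the mice that express Xist, 0 with no filter on low counts, and 2 by DESeq2. For Dusp5 the difference was −1.37 ± 0.38 (adjusted p = 0.0719). With the mouse as a replicate block 4 of the 9 were called, against 9.51% of all tested genes in either direction, which were Dusp5 (adjusted p = 0.00122), Dusp8 (0.00554), Dusp7 (0.0399) and Dusp4 (0.0394). In the direct comparison of the genotypes with both agents, Dusp8 (−2.25 (adjusted p = 1.19e-04)), Dusp5 (−1.70 (adjusted p = 5.51e-05)) and Dusp7 (−0.71 (adjusted p = 0.00664)) were lower in NDI1, 3 of 9 against 6.13% of all genes, and these 3 were also called without the pair of mice that stood apart. The genotypes did not overlap with both agents for these 3 of the 9 phosphatases, against 5.37% of all tested genes.

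**Figure D3:**
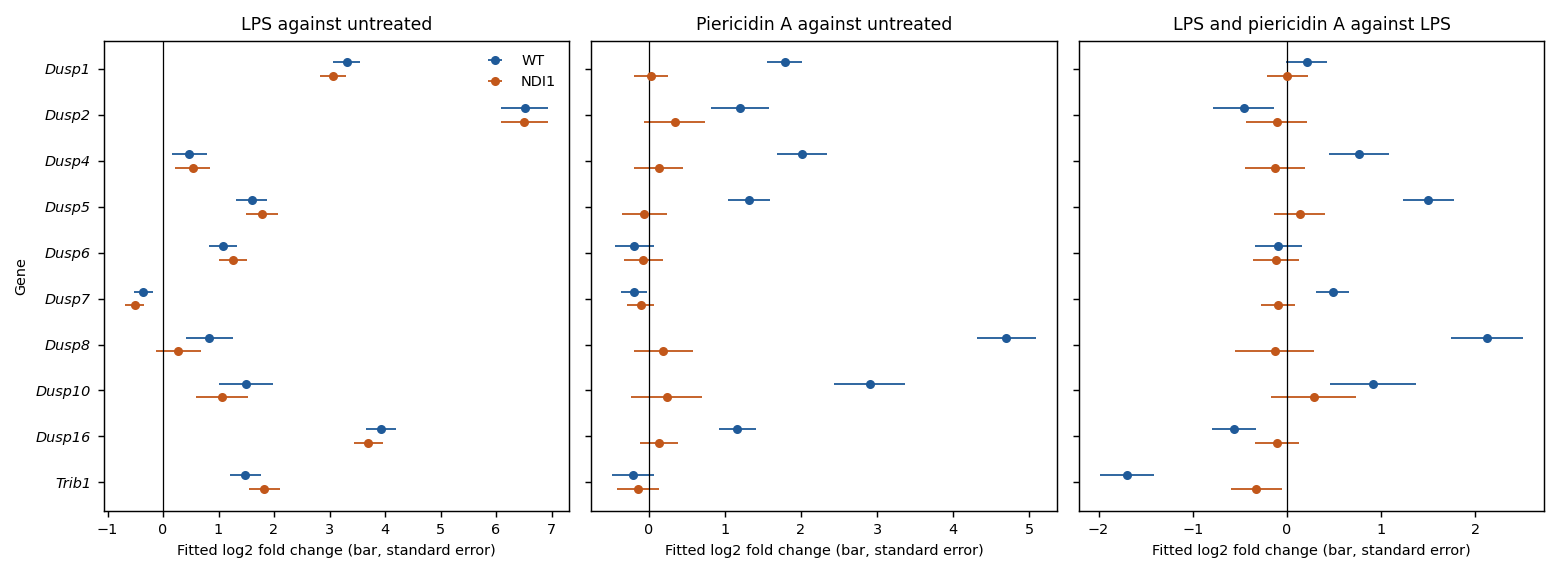
Fitted log2 fold changes of the 10 genes with standard errors, for LPS (left), piericidin A in resting cells (middle) and piericidin A under LPS (right), in WT (blue) and NDI1 (orange). The genotypes lie together for LPS, while for piericidin A the NDI1 values lie between −0.32 and 0.34 and the WT values reach 4.70 for Dusp8.

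The log2 fold change with LPS in WT cells was lower in the presence of piericidin A than without it for 4 of the 9 phosphatases, against 2.16% of all tested genes called lower. The change was −2.57 ± 0.54 (adjusted p = 0.00318) for Dusp8, −1.72 ± 0.34 (adjusted p = 0.00199) for Dusp16, −1.66 ± 0.50 (adjusted p = 0.0459) for Dusp2 and −1.58 ± 0.31 (adjusted p = 0.00218) for Dusp1. These genes did so in different ways. Dusp1 started higher and ended at overlapping levels, since LPS took it within mice up by 3.03, 3.40, 3.18, 3.57 and 3.41 without the drug and by 1.19, 2.21, 1.98, 1.74 and 1.81 with it. Dusp16 also started higher, and with both agents it was at 136 ± 30.8 CPM, against 199.7 ± 66.5 CPM with LPS alone. Dusp8 with both agents was below its level with piericidin A alone in 5 of 5 WT mice, by −2.36 to −1.17 on the log2 scale. The same held in 5 of 5 WT mice for Dusp4, at 149 ± 57.2 CPM with piericidin A and 87.3 ± 25.1 CPM with both, and for Dusp10, at 5.76 ± 2.48 and 4.07 ± 2.50 CPM, with no test made of these steps. Dusp5 behaved otherwise, with an LPS step of 0.99 to 2.21 without piericidin A and 1.30 to 2.08 with it, and a change of 0.18 ± 0.38 (adjusted p = 0.864).

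Among these calls that of Dusp2 was lost when any mouse but 503 was left out (adjusted p = 0.0502 to 0.261). Without the pair of mice that stood apart the calls were Dusp1 and Dusp16, with Dusp8 at −2.17 (adjusted p = 0.0536) and Dusp2 at −1.36 (adjusted p = 0.111). With the mouse as a replicate block 7 of the 9 phosphatases were called, against 17.4% of all tested genes in either direction. Of the 7, 6 were lower, Dusp4 (adjusted p = 0.00166) and Dusp10 (adjusted p = 0.0201) having joined, and Dusp7 higher (adjusted p = 0.007).

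Trib1 had a pattern of its own, given here without a test. It was at 22.4, 12.4, 11.2, 27.8 and 19.2 CPM in untreated WT mice 449, 452, 453, 496 and 520, 43.4, 39.1, 36.0, 80.9 and 60.1 CPM with LPS, 19.8, 12.0, 14.5, 18.4 and 16.0 CPM with piericidin A and 16.2, 15.7, 8.17, 27.1 and 12.1 CPM with both. Every LPS library was above every library with both agents, and levels with both agents overlapped those of untreated cells. The fitted log2 fold change of both agents against LPS was −1.70 ± 0.28, a 3.25-fold lower level. The within-mouse values were −1.41, −1.30, −2.12, −1.57 and −2.29. Trib1 was chosen from this contrast, so the size, standard error and lack of overlap here are no test of the fall. The LPS step within WT mice was 0.95 to 1.67 without piericidin A and −0.81 to 0.55 with it. Levels relative to cells without LPS depend on the scaling. With library totals the fitted LPS effect on Trib1 in WT was 0.69 in place of 1.48, and that of piericidin A under LPS was −1.64.

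In NDI1 mice 447, 460, 461, 503 and 521 Trib1 was at 12.3, 15.0, 18.2, 25.2 and 14.2 CPM untreated, 47.2, 59.7, 64.6, 79.9 and 48.9 CPM with LPS, 7.81, 15.1, 17.6, 21.6 and 14.5 CPM with piericidin A and 32.2, 38.2, 54.2, 63.6 and 51.5 CPM with both. The LPS step was 1.66 to 1.98 without the drug and 1.32 to 2.02 with it, so that in each NDI1 mouse Trib1 rose with LPS under both conditions. Piericidin A under LPS gave −0.32 ± 0.27 (adjusted p = 1) in NDI1, with a 95% interval of −0.85 to 0.20 and within-mouse values of −0.55, −0.64, −0.25, −0.33 and 0.08. With both agents the NDI1 libraries, at 32.2 to 63.6 CPM, were all above the WT libraries, at 8.17 to 27.1 CPM. The fitted difference was 1.59 ± 0.28, given as a description since it uses WT libraries that entered the choice of Trib1. The effect of piericidin A on Trib1 in resting cells, which did not enter the choice of the gene, differed between genotypes by 0.06 ± 0.39 (adjusted p = 0.98).

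**Figure D4:**
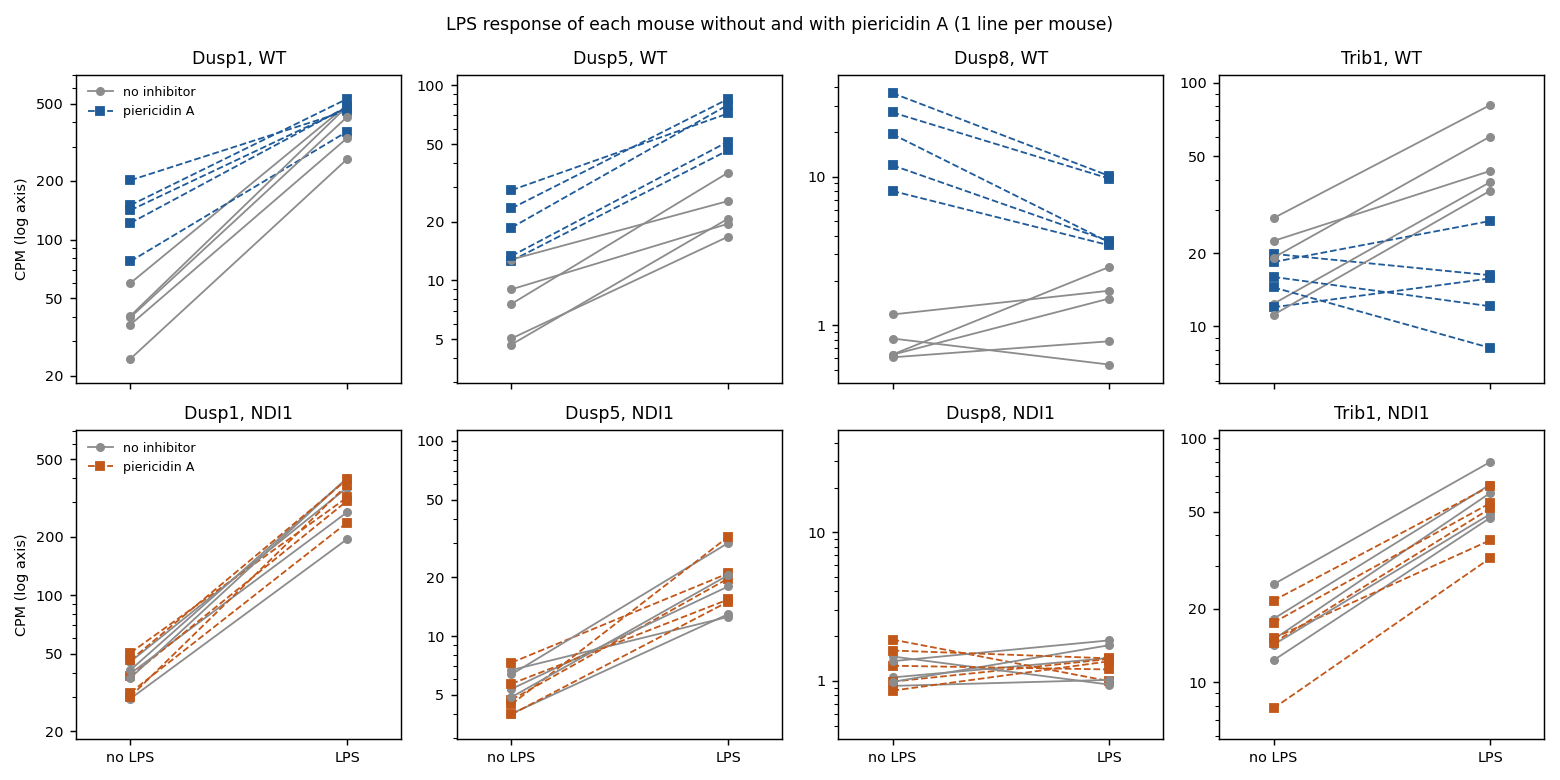
LPS step of each mouse in CPM (log axis) without (grey, solid) and with piericidin A (coloured, dashed) for Dusp1, Dusp5, Dusp8 and Trib1 in WT (top) and NDI1 (bottom). In WT the dashed lines of Dusp8 fall with LPS, those of Trib1 stay between 8.17 and 27.1 CPM, and in NDI1 the solid and dashed lines run together.

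Close relatives of the members were followed as well. Dusp9, an ERK-directed cytoplasmic phosphatase, was at 5.33 ± 4.03 CPM in untreated WT cells and 7.81 ± 2.19 CPM with piericidin A, and was not called. In resting NDI1 cells Dusp9 was at 5.57 ± 1.46 CPM without and 5.68 ± 2.50 CPM with piericidin A. Trib3, a pseudokinase induced in the integrated stress response, was at 22.0 ± 13.9 CPM untreated, 7.07 ± 3.86 with LPS, 66.7 ± 32.6 with piericidin A and 13.7 ± 4.12 with both in WT, and at 25.1 ± 18.0 and 30.0 ± 20.5 CPM without and with piericidin A in resting NDI1 cells. It was called higher with piericidin A in resting WT cells (1.60, adjusted p = 0.00886), while Trib1 was not. Trib2 had at most 8 counts in any library and was not tested.

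The pathway around these genes was described with lists chosen with earlier results known. Of 20 tested members of the MAPK cascade, 0 were called higher and 2 lower with piericidin A under LPS in WT cells, Map2k1, which encodes the ERK kinase MEK1 (−0.39), and Mapk9, which encodes JNK2 (−0.45), and the median log2 fold change of the list was −0.08 against −0.02 over all tested genes. Of all tested genes, 7.81% were called higher and 8.92% lower in that comparison, and 7.79% higher and 7.05% lower with piericidin A in resting WT cells. In resting WT cells 0 of the 20 were higher and 2 lower, Mapk14, which encodes p38α, and Map3k5, which encodes ASK1. Of 10 kinases activated by MAP kinases, 2 were higher with piericidin A under LPS, Mknk2 (1.95) and Rps6ka2 (1.97), and 1 lower, Rps6ka3 (−0.42), with a median of 0.11, and in resting WT cells Rps6ka2 was higher (1.81) and Rps6ka1 lower (−0.69), with a median of 0.04.

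Of 7 tested other inhibitors of RAS and ERK signalling, such as the Sprouty and Spred genes, 0 were called with piericidin A under LPS in WT (median −0.26), and 1 was called higher in resting WT cells, Errfi1, an inhibitor of the EGF receptor. Of 12 other dual-specificity and MAPK-binding phosphatases, Dusp3 was higher (0.53) and Dusp28 lower (−0.80) under LPS (median −0.04), and Dusp14 was higher and Ptpn7 lower in resting cells. Of 5 relatives and partners of Trib1, 1 was lower under LPS, the ubiquitin ligase Cop1 (−0.78; median 0.16), and 2 were higher in resting cells, Trib3 and Cebpb. Of 6 RNA-binding proteins that control cytokine mRNA, Zfp36l1 (1.41) and Zfp36l2 (1.28) were higher under LPS (median −0.07), and Zc3h12a and Zfp36 were higher in resting cells. In NDI1 cells none of the genes on these 6 lists was called with piericidin A, with or without LPS, in edgeR. Of all tested genes, 0% were called in either of these comparisons.

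Patterns most like those of the members were sought by the Pearson correlation of the 8 group means of log2 CPM, which share libraries. Nearest to Trib1 were Mfsd14a (r = 0.992), Sc5d (0.991) and Ggnbp2 (0.988). Nearest to Dusp8, whose group means spanned 4.27 on the log2 scale, were Osm (0.994), Tollip (0.989) and Blnk (0.988). Dusp2 and Dusp16, which follow LPS, had Cldnd1 (0.9998), Camk2d (0.9997) and Gabpb1 (0.9996), and Gramd1a (0.9996), Dld (0.9994) and Actr3 (0.9993), as their nearest.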

How the data were processed

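RNA-seq was performed on BMDMs of 5 WT and 5 NDI1 mice under 4 treatments (40 libraries). The authors used Trimmomatic for trimming, STAR for alignment to mm10 and HTSeq for counting in exons, and deposited counts per gene without normalization. The annotation release is not given in the sources used here. Of 43430 identifiers, 42462 matched a symbol. 1 column of reads without a library was not used, and neither were deposited gene lengths, which exceeded the genomic span for 1982 genes.

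Counts were analysed with edgeR 4.0.16 in R 4.3.3. Genes passing filterByExpr (11853) were scaled by TMM, 1 mean per group was fitted over all 40 libraries with glmQLFit, and glmQLFTest gave p-values for the contrasts, with Benjamini-Hochberg adjustment over all tested genes (threshold 0.05). Standard errors are the fold change over the square root of F. Log2 CPM of single libraries used a prior count of 2. Depth was 6950748 to 13552070 counts, and 3 counts, 0.187 to 0.480 CPM, was the floor, for counting error only.

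Label numbers mark the mouse that 4 libraries share. Their deviations correlated at 0.453 on average (0.0995 to 0.769, 60 pairs), against −0.107 for 240 pairs of different mice. The main fit has no block, and the Methods name none. No replicates were identical within sampling noise (chi-square per degree of freedom 9.35 to 77.3 over 80 pairs). Alternatives were DESeq2 1.42.0, RLE factors, other filters, the mouse as a block, only the compared libraries, mice left out, a fold threshold and, chosen after seeing the data, mice that express Xist and library totals.

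The members and lists were chosen with earlier results of these data known. The genes named are all members, up to 4 called genes per list under LPS and piericidin A in WT, Dusp9, Trib2 and Trib3, and the 3 nearest patterns of Trib1 and of the 3 phosphatases with the widest range. List genes called in resting cells were named after their values were seen. One further marker list is not reported here.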

Additional observations from a re-analysis of the deposited data

Results flagged for a closer look

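In 3 of the 80 groups of 5 libraries (10 genes in 8 groups), the highest or lowest mouse lay far from the others on the scale of log2 CPM, and chance gives about 1 in 20. Dusp10 in NDI1 cells with LPS and piericidin A was lowest in mouse 447, at 1.11 CPM against 2.69 CPM in the next mouse, a gap of 0.719 of the log2 range. Dusp16 in untreated WT cells was highest in mouse 520, at 18.6 CPM against 12.3 CPM, a gap of 0.807 of the log2 range. Dusp16 in NDI1 cells with piericidin A was highest in mouse 521, at 24.6 CPM against 14.9 CPM, a gap of 0.800 of the log2 range.

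The effect of piericidin A differed between the genotypes in the test of the difference itself for 5 results, on the log2 scale as NDI1 minus WT in edgeR. In resting cells it was −4.51 for Dusp8 (adjusted p = 1.68e-06), −2.67 for Dusp10 (adjusted p = 0.0288), −1.89 for Dusp4 (adjusted p = 0.0226) and −1.76 for Dusp1 (adjusted p = 0.00127). Under LPS it was −2.26 for Dusp8 (adjusted p = 0.0411). In each case the WT mean rose with piericidin A and the 95% interval of the change in NDI1 cells included 0.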

How the results depend on the processing

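Counts of called genes moved by over 1.5 times in 4 comparisons. For piericidin A under LPS in WT the count was 2, and 5 with the mouse as a replicate block. For the difference between genotypes under LPS it was 1, and 0 with no filter on low counts, 0 with at least 10 counts in every library, where Dusp8, the gene called, was not tested, 4 with the mouse as a replicate block, 0 without the pair of mice that stood apart, 0 with only the mice that express Xist, 0 with only the compared libraries, 2 with library totals, 2 by DESeq2, and 0 to 2 without 1 mouse. For the same difference in resting cells it was 4, and 2 with at least 10 counts in every library, where Dusp8 and Dusp10 were not tested, 2 with only the mice that express Xist, and 2 to 4 without 1 mouse. For the LPS response with against without piericidin A in WT it was 4, and 7 with the mouse as a replicate block, 2 without the pair of mice that stood apart and 0 with only the mice that express Xist. The within-mouse rise of Dusp1 with piericidin A in resting WT was 1.64 by library totals, against 1.77 with TMM factors. Apart from the calls named in the report, the block changed no other call. Over the genes called and their alternatives, 687 values kept their call, 71 lost it and 0 changed sign, which leaves out genes not called, such as Dusp4 with LPS. Except for the fewer genes or mice of some fits, the cause of these changes was not tested. Few counts of Dusp8 and Dusp10 limit their fold changes, and with 3 WT and 4 NDI1 mice the fits on mice that express Xist had fewer libraries.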
